A study of Mus musculus with 12 samples.

Results

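The transcriptional effect of mutant NRAS was described in marrow cells that already carried mutant SETBP1. Mouse bone marrow had been transduced with retroviruses made in 293T17 packaging cells, a human embryonic kidney derivative used to produce virus. The comparison set the libraries labelled SETBP1 (D868N) plus NRAS (G12D) against those labelled SETBP1 (D868N) plus EMPTY, so every cell population compared had received a mutant SETBP1 vector together with a second vector that either held mutant NRAS or was empty. Each of these groups had 3 libraries, 6 of the 12 in the series, and all genes that could be tested in them were members of the comparison. The other 6 libraries, with empty vectors or with mutant NRAS and no SETBP1, served as a second setting for the same NRAS vector. The marrow came from female C57BL/6J mice of 6 to 10 weeks, and the labels call the transduced populations murine leukemia cells. No donor, transduction or culture was named for a replicate, so the p-values measure the spread between these libraries, which may be technical. The viral promoters, the cells that took up virus and the number of clones in each population are not given in the sources used here.

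NRAS is a small GTPase that relays signals from growth factor and cytokine receptors. Its GTP-bound form recruits RAF kinases, which act through the MEK and ERK kinases of the MAPK cascade, and it also feeds the PI3K pathway. The G12D exchange slows GTP hydrolysis and keeps the protein in the active form. Active ERK induces its own inhibitors, among them dual-specificity phosphatases and Sprouty and Spred proteins, and it induces transcription factors of the FOS, EGR and ETV families. SETBP1 is a nuclear DNA-binding protein that is mutated in chronic myeloid neoplasms, and D868N lies in the stretch that targets the protein for degradation.

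Total counts ran from 7335665 to 8864919 in the SETBP1 libraries and from 7462440 to 8021676 with both mutants. SETBP1 replicate 3 stood apart. It had counts in 11835 genes against 12461 to 12696 in the other 5 libraries compared, and its correlation of log2 CPM with the other SETBP1 replicates was 0.946 and 0.953, while those 2 correlated at 0.984. Its monocyte and macrophage transcripts summed to 42735 normalised CPM (CPM, scaled with the TMM factor of each library) against 22518 and 24909 in replicates 1 and 2. Results are therefore given with and without it. The leukocyte gene Ptprc had 1337 to 1830 counts with SETBP1 and 2073 to 2302 with both, and Spi1, which encodes the myeloid factor PU.1, had 2704 to 4569 in the 6 libraries. Of the defining markers of other cells, Cd3e, Ncr1 and Hba-a1 were at 0 in all 6 libraries, and Cd79a, Ms4a1, Cd3d, Cdh5 and Col1a1 had at most 9 counts. These are bulk libraries, in which fewer cells of a type and less RNA per cell cannot be told apart. Marker sums of several lineages differed between the groups, as given with each lineage, and their part in the other changes was not tested.

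Mutant NRAS moved transcripts over a wide range in the SETBP1 background. Of 10993 genes tested, 2293 rose (20.9%) and 2368 fell (21.5%) at an adjusted p under 0.05 in edgeR's quasi-likelihood test. Those shares are the background for every list count given below. By size, 1421 of the called genes changed at least 2-fold, 598 upward and 823 downward. Changes of at least 4-fold were about as many in each direction, 248 higher and 243 lower, while changes of at least 16-fold were mostly increases, 89 against 20. The split at the threshold depended on scaling: 49.2% of the calls were increases with TMM factors and 37.3% when libraries were scaled to their totals alone, which moved the median gene by -0.08 on the log2 scale.

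**Figure D1:**
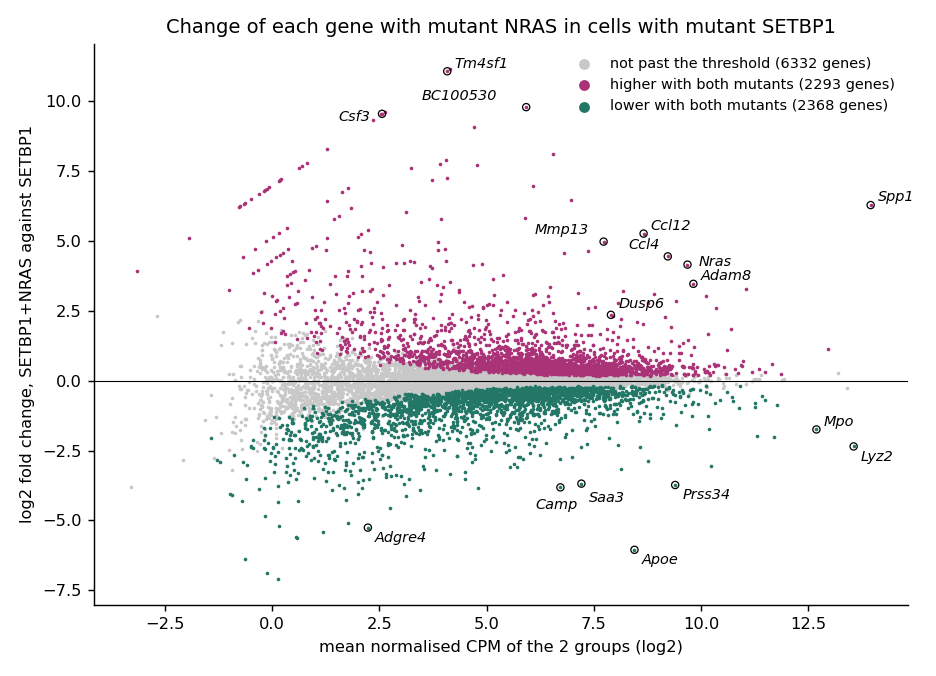
Log2 change with both mutants against SETBP1 alone (vertical axis) against the mean level of the groups in log2 normalised CPM (horizontal axis); each point is 1 of 10993 genes, coloured where it passed the threshold, and labelled genes, Adam8 and Lyz2 among them, were picked after their values were seen. The 2293 increases reach further from 0 than the 2368 decreases, but values of genes with a group at 0, such as Tm4sf1 and Csf3, are fitted ones and no bound.

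The introduced genes were read first. Nras (chr3:103058285-103067914, plus strand, in the GENCODE vM21 annotation of GRCm38) stood at 86.7, 92.5 and 85.4 normalised CPM in the SETBP1 libraries and at 1537, 1599.9 and 1539 with both mutants, with no overlap. The log2 change was 4.14 (SE 0.09, adjusted p = 1.90e-12). The table names the mouse gene only, so reads from the vector and from the endogenous locus cannot be told apart. Setbp1 had 7, 7 and 5 raw counts with SETBP1 and 13, 17 and 11 with both mutants, and it was at 0 in the 6 libraries without a SETBP1 vector. The difference of 1.21 between the groups that carry it did not pass the threshold (adjusted p = 0.0693).

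The genes that ERK uses to restrain itself were higher with both mutants. Of 10 phosphatases tested, most of them specific for ERK or its relatives, 6 rose and none fell, with a median log2 change of 1.52 beside -0.0046 over all genes. Dusp6, the cytoplasmic ERK phosphatase, read 81.2, 70.3 and 83.6 normalised CPM with SETBP1 and 404, 376 and 418 with both mutants. Every library with both mutants was above every SETBP1 library, at a log2 change of 2.35 (SE 0.08, adjusted p = 2.02e-10). Dusp5, a nuclear ERK phosphatase, read 9.75, 11.9 and 8.28 and then 47.6, 46.1 and 42.4, a change of 2.19 (SE 0.14, adjusted p = 5.86e-08). Dusp4, which acts in the nucleus as well, went from 0.723, 0.784 and 0 to 11.7, 8.70 and 7.94 normalised CPM. Its change of 4.22 (SE 0.57, adjusted p = 5.03e-05) rested on SETBP1 levels near the detection limit and was 3.62 without SETBP1 replicate 3.

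The Sprouty and Spred inhibitors, which act upstream at RAS and RAF, were split. Of 7 tested, 4 rose and none fell (3 and none without SETBP1 replicate 3). Spred1 read 34.7, 26.8 and 18 normalised CPM with SETBP1 and 114, 117 and 107 with both, a log2 change of 2.09 (SE 0.18, adjusted p = 7.74e-07). Errfi1, an inhibitor of EGF receptor family kinases counted in the same list, changed by 2.40 (SE 0.22, adjusted p = 1.44e-06). Spry4 was 0.843, 0 and 0.118 and then 6.29, 9.73 and 9.69 normalised CPM, so the groups did not overlap, and its change of 4.65 (SE 0.60, adjusted p = 3.66e-05) was 6.77 without SETBP1 replicate 1. Spry2, in contrast, read 3.37, 2.61 and 3.19 and 2.24, 3.33 and 2.83, with overlapping groups and a log2 difference of -0.13 (adjusted p = 0.795).

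Transcripts known to follow ERK activity formed a list of 10 tested genes, which shares Dusp4, Dusp6, Spry2, Spry4 and Spred1 with the lists above, and 9 of them rose. The median log2 change was 2.52, and 2.61 without SETBP1 replicate 3. Etv5, an ETS-family factor, read 15.2, 14.9 and 9.11 normalised CPM with SETBP1 and 50.1, 57.7 and 50.5 with both mutants, a log2 change of 2.02 (SE 0.18, adjusted p = 1.17e-06). Its relative Etv4 read 1.93, 0.915 and 1.18 and then 5.59, 7.55 and 5.38, a change of 2.18 (SE 0.37, adjusted p = 0.000374). Ccnd1, cyclin D1, which drives CDK4 and CDK6 in G1, went from 14.8, 19.2 and 9.94 to 124, 119.9 and 118, a change of 3.04 (SE 0.18, adjusted p = 2.79e-08). These 3 genes each separated the groups completely. How many of all genes tested do so is not given here, so separation of groups is a description only. Epha2, an ephrin receptor kinase, rose from 1.45, 1.57 and 2.25 to 22.8, 20.5 and 17.5 normalised CPM, at 3.51 (SE 0.25, adjusted p = 1.79e-07). Phlda1 was 5.18, 4.57 and 16 and then 64.6, 42.2 and 61.4, with its highest SETBP1 value in replicate 3. Its log2 change of 2.69 (SE 0.33, adjusted p = 2.76e-05) was 3.52 without that library.

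**Figure D2:**
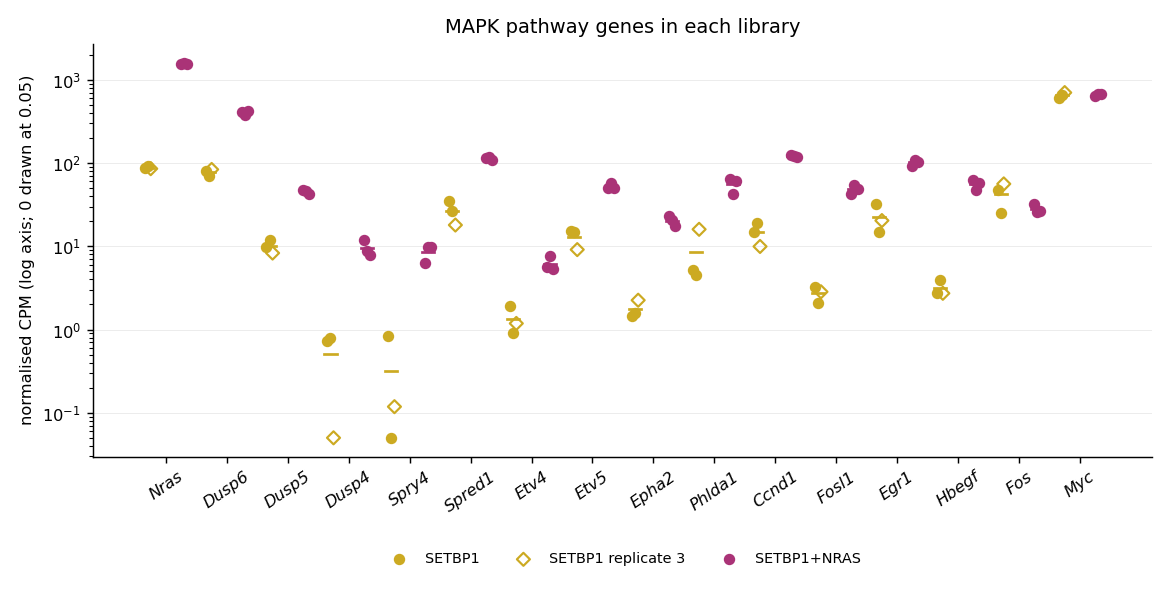
Normalised CPM on a log scale (vertical axis, with 0 drawn at 0.05) of Nras, ERK feedback and output genes, Hbegf (an EGF receptor ligand, picked after its values were seen), Fos and Myc in each library; points are libraries, open diamonds SETBP1 replicate 3 and bars group means. Every gene from Nras to Hbegf separates the groups, while Fos and Myc overlap. The share of all genes tested that separate the groups is not given here, so this describes the drawn genes only.

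Promoters of increased genes were read for the letters bound by factors downstream of ERK. RefSeq promoters on GRCm38.p6 (250 bases before to 50 after the start) were at hand for 8836 of the 10993 genes. Motifs were sought only in the 250 bases before the start, at a single start site per gene. The AP-1 motif TGANTCA, read on both strands, was in 4.43% of these promoters. It was in 4.54% of the genes that rose, in 4.48% of those that fell, in 7.78% of the 180 called increases of at least 4-fold and in 6.52% of the 184 called decreases of that size. The ETS motif CCGGAAGT was in 6.41% of all tested promoters, in 0.556% of the strong increases and in 0.543% of the strong decreases. The CArG box that serum response factor binds was in 1.11%, 1.67% and 2.17%. No printed match overlaps another motif. Shown next are stretches of 70 bases from 3 increased protease-system genes that hold an AP-1 match and from Dusp5, which holds a CArG match. They were chosen after the matches were seen, and capitals mark the matched letters.
Mmp10, chr9:7502242-7502311, plus strand: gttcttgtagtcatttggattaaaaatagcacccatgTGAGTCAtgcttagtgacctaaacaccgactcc
Mmp13, chr9:7272444-7272513, plus strand: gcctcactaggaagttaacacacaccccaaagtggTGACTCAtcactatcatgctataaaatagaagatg
Plaur, chr7:24462383-24462452, plus strand: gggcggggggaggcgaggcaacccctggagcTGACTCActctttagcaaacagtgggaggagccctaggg
Dusp5, chr19:53529035-53529104, plus strand: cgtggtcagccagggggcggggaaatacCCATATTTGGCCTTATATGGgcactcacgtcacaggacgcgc
In Mmp10 the AP-1 match lies 63 to 57 bases before the start, in Mmp13 it lies 35 to 29 bases before it, and in Plaur 69 to 63. Dusp5 holds a pair of adjoining CArG boxes, 82 to 73 and 72 to 63 bases before the start. Of the 7 increased genes of the protease list with a promoter sequence, 3 held an AP-1 match, and none held an ETS or CArG match. The 3 were Serpinb2, Plaur and Mmp13, since Mmp10 is not in the list. Of the 5 increased phosphatase genes with one, Dusp5 was the 1 with a CArG match, and none held an AP-1 or ETS match. Among 14 increased ERK output and immediate-early genes with a promoter sequence, AP-1 and ETS matches were in 0 and a CArG match in 1. A match describes the letters in the window and is not a measurement of binding.

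Upstream of these outputs, the core of the pathway moved less by list median, and its members moved in both directions. The median log2 change was -0.27 for RAS isoforms, 0.0079 for kinases and scaffolds and 0.16 for RAS activators and inactivators. Among 6 RAS isoforms and relatives, 2 rose and 2 fell, the decreases being Rras and Mras. Rras, a RAS relative that acts on integrins, read 14.2, 17.2 and 36 normalised CPM with SETBP1 and 5.87, 5.38 and 9.69 with both, a log2 change of -1.69 (SE 0.32, adjusted p = 0.000949). Of 14 RAF, MEK, ERK and scaffold genes, 4 rose and 3 fell (4 and 5 without SETBP1 replicate 3). With all libraries, 20.9% of all genes tested were higher and 21.5% lower. Map2k1, which encodes MEK1, went from 179.6, 147 and 174 to 249, 232 and 240.4 normalised CPM, a change of 0.53 (SE 0.08, adjusted p = 0.000211). Mapk3, which encodes ERK1, went the other way, from 117, 128 and 155 to 75.2, 72.3 and 84.2 normalised CPM, a change of -0.79 (SE 0.10, adjusted p = 4.14e-05). Among 20 genes that load RAS with GTP or speed its hydrolysis, 6 rose and 5 fell, beside the same shares over all genes. The largest called increases there were Rasgrp3, at 4.66, Rasal1, at 3.89, and Dab2ip, at 1.85 (SE 0.37, adjusted p = 0.00141). Rasgrp3 was at 8.16 without SETBP1 replicate 2 and Rasal1 at 5.09 without SETBP1 replicate 1. Rasa4, a GTPase activator, fell from 71.1, 77.2 and 85.3 to 27.1, 35.7 and 22.7 normalised CPM, a change of -1.45 (SE 0.15, adjusted p = 6.43e-06). Rasgrp1, an exchange factor, changed by -1.52 (SE 0.34, adjusted p = 0.00294). Nf1, the neurofibromin gene, read 12.3, 9.54 and 6.63 and 13.4, 12.9 and 10.8, with overlapping groups and no call (adjusted p = 0.201).

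Immediate-early transcription factors, the first genes induced by many signals, rose in 13 of 21 tested and fell in 2. Fosl1, a FOS-family member of AP-1, showed the largest of these changes. It read 3.25, 2.09 and 2.84 normalised CPM with SETBP1 and 42.8, 53.9 and 49 with both mutants, a log2 change of 4.14 (SE 0.19, adjusted p = 2.20e-09). Egr1, a zinc finger factor, went from 31.9, 15 and 20.4 to 92, 110.1 and 104, a change of 2.18 (SE 0.23, adjusted p = 7.21e-06). Egr3 was 1.45, 0.131 and 0.118 and then 9.51, 5.76 and 8.48, and its change of 3.75 (SE 0.60, adjusted p = 0.000212) was 5.81 without SETBP1 replicate 1. Not every member moved that way. Klf4, which promotes monocyte differentiation, fell from 11.8, 10.7 and 19.5 to 2.94, 4.99 and 2.96 normalised CPM, at -1.94 (SE 0.33, adjusted p = 0.000428). Fos itself read 47.7, 24.8 and 56.1 and 31.7, 26 and 26.8, with overlapping groups. Its log2 change of -0.61 passed the threshold with all libraries (adjusted p = 0.0416) and not without SETBP1 replicate 3 (-0.37, adjusted p = 0.115), nor with any of 9 other libraries left out in turn.

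Cyclins and replication genes rose by smaller amounts. Of 19 G1 cyclins, kinases and inhibitors, 10 rose and 2 fell, and of 25 replication and mitosis genes 10 rose and none fell, at a median of 0.21. Over all genes tested the shares were 20.9% higher and 21.5% lower. Ccnd2, cyclin D2, read 346, 412 and 275 normalised CPM with SETBP1 and 542, 533 and 518 with both, a log2 change of 0.62 (SE 0.12, adjusted p = 0.00126). Bub1, a mitotic checkpoint kinase, changed by 0.62 (SE 0.11, adjusted p = 0.000731) and Rrm1, a subunit of ribonucleotide reductase, by 0.43 (SE 0.07, adjusted p = 0.000465). The proliferation marker Mki67 overlapped between groups, at 182, 187 and 116 and 206, 190.3 and 162 normalised CPM (adjusted p = 0.351). The kinase inhibitor genes Cdkn1a and Cdkn2b were among the increases. Cdkn1a, which encodes p21, went from 193, 228 and 309 to 522, 476 and 509, a change of 1.05 (SE 0.17, adjusted p = 0.000289), and Cdkn2b, which encodes p15, went from 0.723, 0.653 and 1.42 to 10.1, 9.34 and 8.07, a change of 3.26 (SE 0.36, adjusted p = 9.17e-06). The 2 genes of the G1 list that fell, Cdk4 and Rbl2, changed by -0.17 and -0.40 (adjusted p = 0.0493 and 0.0437). Cdk4 lost its call without empty replicate 1, NRAS replicate 1 or 2, SETBP1 replicate 3 or any 1 replicate with both mutants, at -0.19 to -0.12. Rbl2 lost it without NRAS replicate 2, SETBP1 replicate 1 or any 1 replicate with both mutants, at -0.43 to -0.29.

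Among survival genes, Bcl2l1, which encodes the anti-apoptotic protein BCL-XL, read 48.5, 43.8 and 46.4 normalised CPM with SETBP1 and 168, 162 and 169.7 with both mutants. The log2 change was 1.85 (SE 0.07, adjusted p = 6.68e-10). Bcl2 changed in the same direction by 1.22 (SE 0.15, adjusted p = 3.20e-05), and so did the pro-apoptotic Bcl2l11, which encodes BIM, by 1.04 (SE 0.18, adjusted p = 0.000542). Of 15 family members tested, 3 rose and 3 fell (5 and 3 without SETBP1 replicate 3), the last being Bcl2a1a, Bad and Bmf. Over all genes tested the shares were 20.9% higher and 21.5% lower. Mdm2, which marks p53 for degradation and is itself a p53 target, went from 129, 110.02 and 115 to 335, 342 and 324 normalised CPM, at 1.496 (SE 0.07, adjusted p = 5.53e-09). Of 15 p53 targets 4 rose and 1 fell, beside the same shares over all genes. Ribosome biogenesis genes rose in 17 of 23 and fell in none, at a median of 0.36. Ncl, nucleolin, changed by 0.69 (SE 0.08, adjusted p = 8.75e-06) and Polr1a, the large subunit of RNA polymerase I, by 0.68 (SE 0.16, adjusted p = 0.00377). Myc, a known driver of such genes, was not called between the groups, at 604, 654 and 701 and 633, 681 and 666 normalised CPM (adjusted p = 0.889).

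Secreted ligands were among the largest increases. Of 18 colony-stimulating factors, interleukins and growth factors tested, 9 rose and 4 fell, at a median of 0.55 (the same with Csf3 and Areg set at their lower bounds). Spp1 (chr5:104435118-104441050, plus strand), osteopontin, a secreted phosphoprotein that binds integrins and CD44, was 351, 222 and 646 normalised CPM with SETBP1 and 32473, 27628 and 34085 with both mutants. The log2 change was 6.27 (SE 0.42, adjusted p = 7.56e-08), and no library lay between the groups. Csf3, granulocyte colony-stimulating factor, had no count in any SETBP1 library and read 9.93, 6.40 and 19.1 with both mutants, at least 30.1-fold higher against a floor of 3 counts per library (adjusted p = 5.07e-05). Areg, amphiregulin, an EGF receptor ligand, was likewise at 0 and then at 5.73, 4.10 and 4.84, at least 12.5-fold higher (adjusted p = 1.64e-05). Csf1, the macrophage growth factor, changed by 0.96 (SE 0.19, adjusted p = 0.00133). Vegfa, in contrast, fell from 150.3, 139.8 and 189 to 66.9, 73.8 and 65 normalised CPM, a change of -1.22 (SE 0.11, adjusted p = 9.74e-07).

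Of 17 chemokines tested, 9 were higher and 2 lower. Ccl12 went from 15.8, 19.99 and 26.3 to 823, 649 and 896 normalised CPM, a log2 change of 5.25 (SE 0.21, adjusted p = 6.56e-10). Ccl4 went from 37.8, 32.7 and 87.6 to 1198, 959 and 1278, a change of 4.44 (SE 0.29, adjusted p = 6.13e-08), and Ccl3 changed by 3.20 (SE 0.18, adjusted p = 1.57e-08). Ccl2, the main ligand of CCR2, read 266, 247 and 613 and then 2309, 2086 and 2325, a change of 2.58 (SE 0.28, adjusted p = 7.35e-06). In Ccl2, Ccl3 and Ccl4, SETBP1 replicate 3 was the highest of its group and still lay below every library with both mutants. The 2 decreases were Cxcl16, at -2.05 (SE 0.21, adjusted p = 5.96e-06), and Ccl5, which fell from 17.1, 24.3 and 31.1 to 5.59, 5.12 and 6.46 normalised CPM, at -2.08 (SE 0.27, adjusted p = 4.51e-05).

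Receptors were mostly lower. Of 23 cytokine and growth factor receptors, 14 fell and 2 rose, at a median of -0.57 (15 and 2 without SETBP1 replicate 3). Ifngr1, a chain of the interferon gamma receptor, read 349, 349 and 393 normalised CPM with SETBP1 and 162, 153 and 156 with both, a log2 change of -1.21 (SE 0.07, adjusted p = 3.66e-08). Kit, the stem cell factor receptor, was 49, 40.2 and 11.8 and then 13, 12.5 and 14, so that replicate 3 lay below every library with both mutants. Its change of -1.35 (SE 0.36, adjusted p = 0.00856) was -1.76 without that replicate. Csf1r, the receptor for CSF1, changed by -0.49 (SE 0.13, adjusted p = 0.00913), the reverse direction of its ligand, or by -0.25 without SETBP1 replicate 3. Il1r1, an interleukin-1 receptor, was an exception and rose from 2.77, 1.31 and 0 to 9.23, 8.45 and 10.8 normalised CPM, at 2.79 (SE 0.57, adjusted p = 0.00138), or 3.88 without SETBP1 replicate 1 and 2.19 without replicate 3. Among 12 receptors for chemokines, complement and formyl peptides, 4 rose and 5 fell, beside 20.9% higher and 21.5% lower over all genes tested. C5ar1, the complement C5a receptor, went from 129, 121 and 168 to 603, 560.3 and 609.9, a change of 2.08 (SE 0.11, adjusted p = 7.74e-09), while the formyl peptide receptor Fpr2 fell, at -1.25 (SE 0.24, adjusted p = 0.00089).

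Proteases and the plasminogen system, which cut matrix and activate growth factors, rose in 10 of 17 tested and fell in 3. Mmp13, collagenase 3, read 14.3, 7.97 and 16.9 normalised CPM with SETBP1 and 409, 302 and 523 with both mutants, a log2 change of 4.97 (SE 0.28, adjusted p = 1.88e-08). Mmp10 (stromelysin 2), which is not in the list, had no count in the SETBP1 libraries and read 7.27, 6.40 and 17.1 with both, at least 26.2-fold higher (adjusted p = 4.50e-05). The promoters of Mmp13, Mmp10 and Plaur are those printed above with an AP-1 match. Plaur, the urokinase receptor, went from 95.6, 96.3 and 144 to 794, 675 and 819, a change of 2.77 (SE 0.14, adjusted p = 5.18e-09). Its ligand Plau was 0.361, 1.96 and 0 and then 14.1, 16.8 and 11.4, at 4.22 (SE 0.55, adjusted p = 4.16e-05), or 6.17 without SETBP1 replicate 2 and 3.62 without replicate 3. Serpinb2, an inhibitor of urokinase, rose beside them from 3.61, 2.09 and 20.9 to 197, 193 and 249.6 normalised CPM. Replicate 3 held the high SETBP1 value, and the change of 4.56 (SE 0.49, adjusted p = 7.35e-06) was 6.20 without it. Mmp14, a membrane-bound metalloprotease, went the other way, from 46.8, 62.6 and 102 to 15.4, 13.6 and 16.4, at -2.22 (SE 0.23, adjusted p = 5.70e-06).

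At the cell surface, 13 of 23 integrins and adhesion molecules rose and 6 fell. Tm4sf1, a tetraspan membrane protein known from endothelial and tumour cells, had no count in any SETBP1 library and read 37.8, 31 and 33 normalised CPM with both mutants, at least 86.5-fold higher (adjusted p = 1.26e-08). Itga3, an integrin chain for laminin that is not in the list, was also at 0 and then at 12.7, 8.83 and 15.6, at least 31.6-fold higher (adjusted p = 7.70e-07). Cd44, a receptor for hyaluronan and osteopontin, went from 167, 166 and 127 to 396, 381 and 350.5, a log2 change of 1.29 (SE 0.11, adjusted p = 6.83e-07), and Itgam, the CD11b chain, changed by 1.19 (SE 0.14, adjusted p = 1.25e-05). Vcam1, which retains leukocytes, fell from 64.8, 29.4 and 80.7 to 12.7, 9.09 and 8.75 normalised CPM, at -2.52 (SE 0.31, adjusted p = 2.43e-05). Pecam1, Kdr and Pdgfrb, the 3 tested genes of the stromal and endothelial marker list, all rose, and that list summed to 74.2 to 82.1 normalised CPM with SETBP1 and 185 to 203 with both. Pecam1 makes up most of that sum, at 79.96, 72.1 and 78.9 and 194, 175 and 185, and the defining markers Col1a1 and Cdh5 had at most 9 counts. Kdr changed by 3.75, or 6.03 without SETBP1 replicate 1 and 3.16 without SETBP1 replicate 3. Pdgfrb changed by 1.95 and lost its call without replicate 2 of the group with both mutants (1.74, adjusted p = 0.0653).

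The most extreme relative changes were in a family of small cysteine protease inhibitors, the stefin A family, known from neutrophils and skin. All 7 tested members of the family proper rose, and the related Cstb fell. BC100530 had 3 counts over the SETBP1 libraries and read 114, 104 and 146 normalised CPM with both mutants, a count ratio of 986 (exact interval 337 to 4782). Gm5483 went from 0.723, 0.915 and 0.355 to 188, 144 and 225, a log2 change of 8.11 (SE 0.26, adjusted p = 1.03e-10). Gm5416 had no SETBP1 count and read 36.6, 28.7 and 41, at least 90.4-fold higher (adjusted p = 8.53e-08). These genes are close copies of each other, so how the reads divide among them is uncertain. Ptprn, a receptor-type phosphatase-like protein of secretory vesicles, was the other gene of the largest increases without a SETBP1 count, at 13, 10.9 and 11.2 normalised CPM and at least 29.8-fold higher (adjusted p = 7.02e-07).

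In metabolism, glucose uptake and lipid handling changed in selected genes. Slc2a1, the glucose transporter GLUT1, read 127, 119 and 67.4 normalised CPM with SETBP1 and 273, 238 and 249 with both mutants, a log2 change of 1.28 (SE 0.17, adjusted p = 4.61e-05). Hk3, a myeloid hexokinase, changed by 0.75 (SE 0.07, adjusted p = 3.33e-06) and Pkm, pyruvate kinase, by 0.60 (SE 0.10, adjusted p = 0.000301). Of 22 glycolysis genes, 8 rose and 4 fell, beside 20.9% higher and 21.5% lower over all genes tested. The list's median of 0.05 turned to -0.02 with library size scaling and just below 0 with upper-quartile scaling. Slc7a11, the cystine importer, went from 23.1, 24.8 and 22.2 to 103, 109.7 and 106, a change of 2.18 (SE 0.10, adjusted p = 3.17e-09), and Hmox1, heme oxygenase, changed by 1.41 (SE 0.20, adjusted p = 8.81e-05), although the antioxidant list as a whole had 5 increases and 7 decreases among 17 (6 and 4 without SETBP1 replicate 3). Lpl, lipoprotein lipase, and Plin2, a lipid droplet protein, rose by 2.26 and 1.00 (adjusted p = 1.42e-07 and 0.000721).

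Of 15 lipid efflux genes and targets of the LXR receptors, 6 fell and 3 rose, beside 21.5% lower and 20.9% higher over all genes tested. Apoe (chr7:19696109-19699188, minus strand), the apolipoprotein that macrophages secrete, showed the largest decrease of all genes that met the naming rule. It read 463, 548 and 1055 normalised CPM with SETBP1 and 11.3, 13.1 and 6.73 with both mutants, a log2 change of -6.05 (SE 0.38, adjusted p = 4.49e-08), or -5.60 without SETBP1 replicate 3, the highest of its group. The sterol exporters Abca1 and Abcg1 changed by -2.31 (SE 0.45, adjusted p = 0.000977) and -1.26 (SE 0.25, adjusted p = 0.00122). Cholesterol synthesis fell in 7 of 22 genes and rose in 2, beside 21.5% lower and 20.9% higher over all genes tested. The other 13 were not called, and the list's median was -0.03. The increases were Lss, at 0.45, and Cyp51, at 0.28, and each lost its call in some fits that left out a library. Fdps, farnesyl diphosphate synthase, went from 211, 211 and 277 to 107, 99.2 and 100.1, a change of -1.19 (SE 0.11, adjusted p = 1.53e-06), and Mvd, an earlier enzyme of the pathway, changed by -0.98 (SE 0.16, adjusted p = 0.000301). Lysosomal genes fell in 15 of 28 and rose in 5, but without SETBP1 replicate 3 the counts were 11 and 9. Ctss, cathepsin S, fell from 762, 798 and 1518 to 356, 355 and 323 normalised CPM, at -1.57 (SE 0.22, adjusted p = 6.94e-05), or -1.18 without SETBP1 replicate 3. Ctsl, cathepsin L, rose instead, from 229.5, 191 and 372 to 1033, 973 and 959, at 1.90 (SE 0.18, adjusted p = 2.26e-06).

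Granulocyte genes were lower with both mutants. All 9 early granule proteins tested fell, at a median of -1.72, and their summed level was 19291 to 21104 normalised CPM with SETBP1 and 6157 to 6703 with both. Mpo, myeloperoxidase, read 11255, 10651 and 8697 normalised CPM with SETBP1 and 3028, 3286 and 2799 with both, a log2 change of -1.75 (SE 0.10, adjusted p = 1.52e-08). Elane, neutrophil elastase, went from 4761, 5419 and 5775 to 1333, 1354 and 1243, a change of -2.02 (SE 0.11, adjusted p = 8.35e-09), and Prss57, a granule serine protease, changed by -3.08 (SE 0.13, adjusted p = 1.72e-09). Of 17 late neutrophil genes 12 fell and 1, Mmp9, rose, with sums of 8637 to 12396 and 3133 to 3791. Ltf, lactoferrin of the secondary granules, fell from 646, 411 and 454 to 62.1, 55.4 and 53.5 normalised CPM, at -3.14 (SE 0.18, adjusted p = 1.74e-08), and Chil1, a chitinase-like protein of granules, fell from 40.7, 29.5 and 25.9 to 3.64, 3.71 and 2.02, at -3.35 (SE 0.23, adjusted p = 8.53e-08). Cxcr2, a receptor of mature neutrophils, overlapped between groups (adjusted p = 0.15). In both lists the number that fell was the same without SETBP1 replicate 3.

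Mast cell and basophil genes fell in 9 of 19 tested and rose in 3, with sums of 3336 to 4086 normalised CPM with SETBP1 and 2129.6 to 2595 with both mutants. Fcer1a, the IgE-binding chain of the high-affinity receptor, went from 49, 42.2 and 66.1 to 3.78, 2.56 and 4.57 normalised CPM, a log2 change of -3.85 (SE 0.25, adjusted p = 5.97e-08). Its partner chain Ms4a2 changed by -2.41 (SE 0.29, adjusted p = 1.82e-05). Prss34, a basophil protease, fell from 1432, 929.8 and 1404 to 107, 59.4 and 117, at -3.73 (SE 0.25, adjusted p = 9.22e-08), and Cpa3, a mast cell carboxypeptidase, by -1.71 (SE 0.31, adjusted p = 0.000643). Gzmb, granzyme B, rose in the same list, from 3.01, 10.5 and 0.947 to 21.1, 26.2 and 19.5, and its change of 2.24 (SE 0.47, adjusted p = 0.00173) was 3.48 without SETBP1 replicate 2. Of 6 eosinophil genes tested 2 fell and none rose (3 and none without SETBP1 replicate 3). Siglecf, a sialic acid receptor of eosinophils, went from 15.1, 16.9 and 13.4 to 3.36, 5.38 and 4.44, a change of -1.77 (SE 0.18, adjusted p = 6.07e-06). Prg2, eosinophil major basic protein, varied widely within SETBP1, at 27.3, 126 and 0.592 normalised CPM, and read 65.3, 35.2 and 16.7 with both mutants (adjusted p = 0.74).

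Megakaryocyte genes changed in both directions. Of 14 tested, 7 fell and 3 rose, beside 21.5% lower and 20.9% higher over all genes tested. Their summed level overlapped, at 963 to 1382 normalised CPM with SETBP1 and 1244 to 1270 with both mutants. The platelet glycoprotein Gp1bb fell from 7.71, 13.6 and 23.1 to 0.979, 2.43 and 0.673 normalised CPM, a log2 change of -3.41 (SE 0.48, adjusted p = 7.51e-05), or -4.14 without replicate 2 of the group with both mutants. Treml1, of platelet granules, changed by -2.60 (SE 0.44, adjusted p = 0.00035) and Itga2b, the platelet integrin chain CD41, by -1.36 (SE 0.16, adjusted p = 1.58e-05). The adhesion receptor Selp, P-selectin, rose, at 1.07 (SE 0.16, adjusted p = 0.000109). Pf4, platelet factor 4, was high in SETBP1 replicate 3, at 138, 148 and 369 against 167, 139 and 178 with both mutants, and was not called with that library (-0.44, adjusted p = 0.28) or without it (0.18, adjusted p = 0.396).

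Monocyte and macrophage genes were changed in 25 of 30 tested, 20 lower and 5 higher. Their summed level was 9749 to 11027 normalised CPM with both mutants, below replicates 1 and 2 of SETBP1 as well as the high replicate 3. Adgre4, a macrophage adhesion receptor, fell from 6.98, 10.5 and 10.1 to 0.559, 0 and 0.135, a log2 change of -5.26 (SE 0.73, adjusted p = 6.04e-05), or -6.81 without replicate 1 of the group with both mutants. Saa3, an acute-phase protein of macrophages, fell from 170.3, 184 and 470.3 to 22.2, 14.3 and 27.7, at -3.68 (SE 0.35, adjusted p = 2.83e-06), or -3.05 without SETBP1 replicate 3. Adgre1, the F4/80 antigen, changed by -0.78 (SE 0.18, adjusted p = 0.00308), or by -0.50 without SETBP1 replicate 3. Cd14, Cd36 and Mrc1 were among the 5 increases. Cd14, the lipopolysaccharide co-receptor, rose from 63.7, 79.97 and 147 to 343, 287 and 418 normalised CPM, at 1.85 (SE 0.24, adjusted p = 4.16e-05). Cd36, a scavenger receptor, went from 30.9, 17.5 and 39.3 to 159, 159 and 156, at 2.43 (SE 0.26, adjusted p = 8.11e-06), and Mrc1, the mannose receptor, changed by 1.76 (SE 0.22, adjusted p = 2.89e-05).

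Genes of antigen presentation by MHC class II fell: 8 of 10 were lower and none higher, at a median of -1.54. H2-Aa read 106, 105 and 135 normalised CPM with SETBP1 and 32.6, 26.2 and 22.7 with both, a log2 change of -2.09 (SE 0.19, adjusted p = 1.41e-06), and H2-Eb1 changed by -2.02 (SE 0.22, adjusted p = 8.81e-06). Without SETBP1 replicate 3 the same number fell and 2 rose. Interferon-stimulated genes were lower in 10 of 21 and higher in none, and lower in 9 and higher in 1 without that replicate. Their summed level was 2042, 2276 and 3126 normalised CPM in SETBP1 replicates 1, 2 and 3 and 1580 to 2254 with both, so the sums overlap. Ifit3, an antiviral effector, fell from 35.3, 35.8 and 53.7 to 16.8, 11 and 21.8, at -1.33 (SE 0.23, adjusted p = 0.000369). Ifit2, a relative of it, changed by -1.20 (SE 0.23, adjusted p = 0.000925), and the receptor Ifngr1 fell as given above.

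Regulators of myeloid fate were lower in 10 of 22 tested and higher in 3 (11 and 5 without SETBP1 replicate 3). Irf8, which directs monocyte and dendritic cell fate, read 236, 283 and 385 normalised CPM with SETBP1 and 152, 153 and 143 with both mutants, a log2 change of -1.01 (SE 0.15, adjusted p = 0.000161). Cebpa, a factor required for granulocytes, changed by -0.86 (SE 0.11, adjusted p = 3.59e-05), and Gata1, of the erythroid, megakaryocyte and mast cell lineages, by -1.88 (SE 0.21, adjusted p = 1.25e-05). Id2, an inhibitor of E-protein factors, went the other way, at 0.71 (SE 0.17, adjusted p = 0.00449). Stem and progenitor genes fell in 7 of 18 and rose in 4, beside 21.5% lower and 20.9% higher over all genes tested. Myb changed by -0.88 (SE 0.11, adjusted p = 4.32e-05) and Cd27 by -2.72 (SE 0.38, adjusted p = 6.79e-05), while Meis1, a homeobox partner of HOXA9, rose from 19.9, 25 and 16.2 to 56.9, 62.7 and 55, at 1.52 (SE 0.18, adjusted p = 2.13e-05). Hoxa9 and Hoxa10, which mutant SETBP1 is known to raise, were not called between the groups (-0.20 and 0.68, adjusted p = 0.227 and 0.103).

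**Figure D3:**
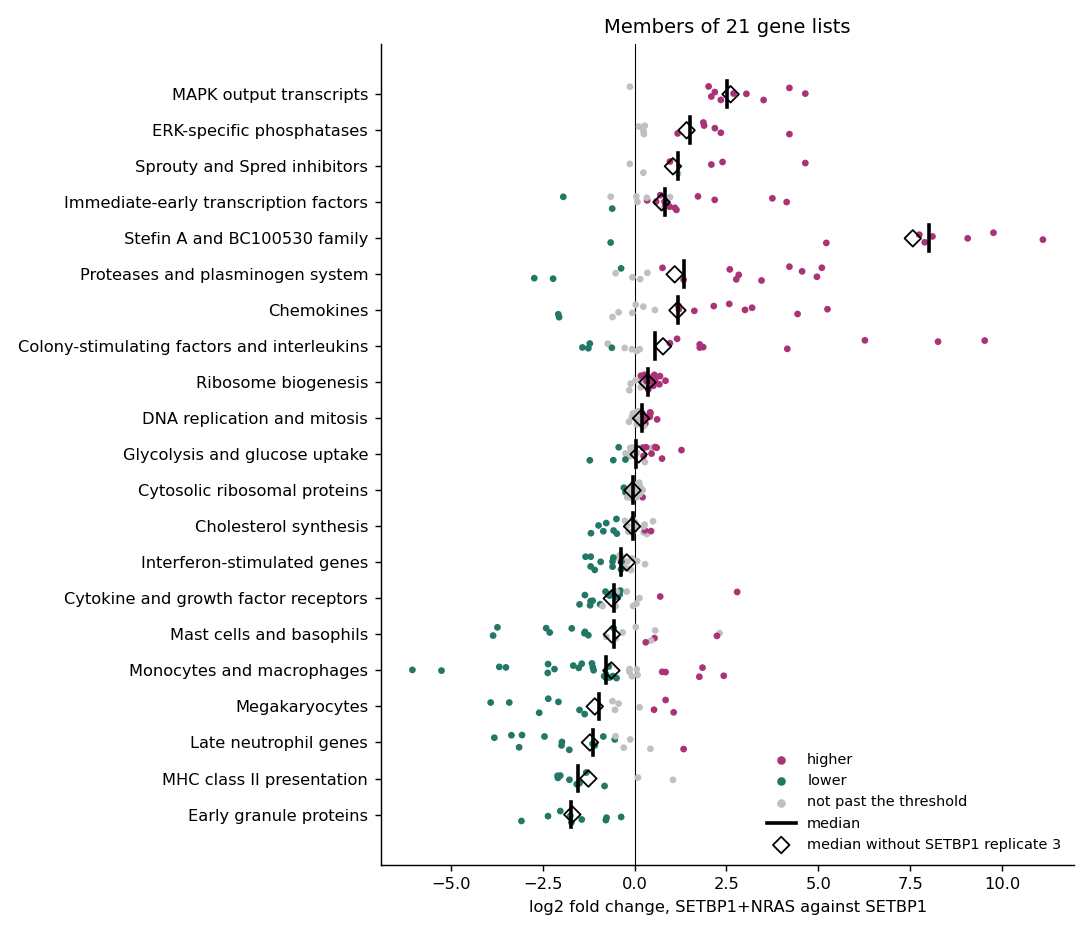
Log2 change with both mutants against SETBP1 alone (horizontal axis) of the tested members of 21 lists; each point is a gene, coloured by call, bars are medians with all libraries and diamonds medians without SETBP1 replicate 3. Medians run from 2.52 for ERK output to -1.72 for early granule proteins, apart from the stefins at the far right, whose highest value is fitted against a group at 0.

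Leaving out SETBP1 replicate 3 added calls and kept most. In that fit 2626 of 11112 genes rose (23.6%) and 2540 fell (22.9%). Of the increases called with all libraries, 2137 were called again (93.2% of them and 81.4% of the increases without replicate 3), and of the decreases 2083 (88.0% and 82.0%). Among the named genes the estimates moved most where that replicate was far from its group. Serpinb2 and Phlda1 rose further without it, as given above, while Gp9, a platelet glycoprotein at 2.17, 3.27 and 9.35 and 0.280, 0.384 and 0.269 normalised CPM, went from -3.92 to -3.05. Bst2, an interferon-induced membrane protein, read 323, 359.7 and 446 and 282, 258 and 342, with overlapping groups. It was called with all libraries (-0.36, adjusted p = 0.0454) and not without replicate 3 (-0.21, adjusted p = 0.114), nor with any of 6 other libraries left out. Hras and Nfkbia were not called with all libraries and passed without it, at 0.38 and 0.28 (adjusted p = 0.00323 and 0.0244).

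The same NRAS vector was introduced without SETBP1 in another pair of groups. Against empty vectors, 1868 genes rose (17.0%) and 1708 fell (15.5%). These libraries are not shared with the comparison above, but all 12 libraries share 1 estimate of spread. With only the groups compared fitted, NRAS against empty gave 5261 calls and both mutants against SETBP1 gave 3083. Without SETBP1 replicate 3 the counts were 5224 and 5166. The counts of calls therefore do not rank the settings, and the overlaps that follow hold for the fit of all 4 groups. Of the 2293 increases in the SETBP1 background, 1372 were also called with NRAS alone, 59.8% of the first list and 73.4% of the second, and of the 2368 decreases 1345 were, 56.8% and 78.7%. Genes called in opposite directions numbered 3. The ERK lists had like counts in both settings: 6 phosphatases higher with SETBP1 and 7 without it, and 9 output genes in each. Dusp6 changed by 2.35 with SETBP1 and by 2.20 without it, and Fosl1 by 4.14 and 3.96. Interferon-stimulated genes had 6 increases and 3 decreases with NRAS alone, at a median of 0.36, beside 0 and 10 in the SETBP1 background, at -0.37. For Ifit3 these changes were -0.65 and -1.33, and the test of the difference did not pass (adjusted p = 0.394). Bst2, picked after its values were seen, changed by 0.45 with NRAS alone (adjusted p = 0.0199) and by -0.36 in the SETBP1 background (adjusted p = 0.0454). Its difference did not pass with all libraries (-0.80, adjusted p = 0.178) and passed without SETBP1 replicate 3 (-0.66, adjusted p = 0.0295).

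**Figure D4:**
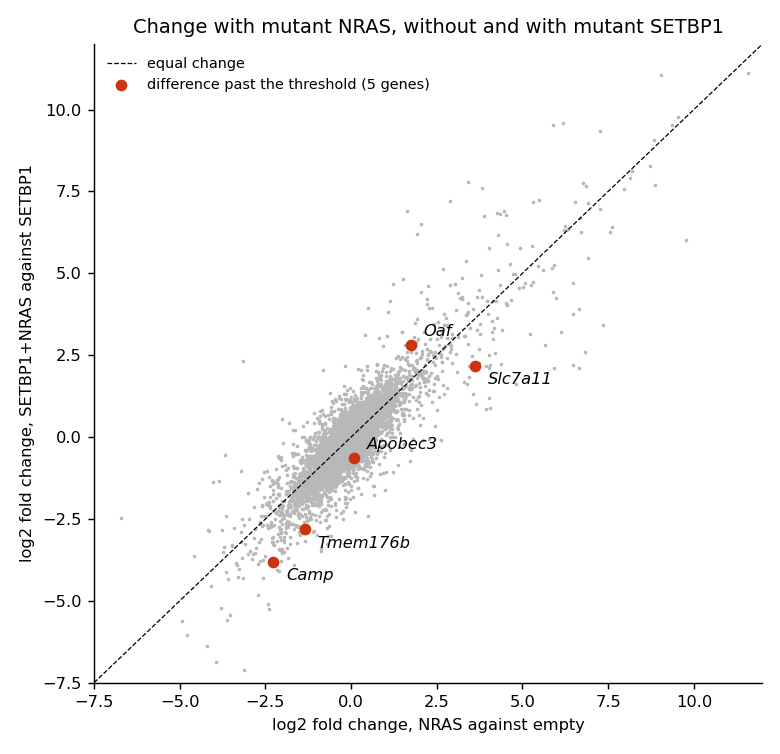
Log2 change with NRAS against empty vectors (horizontal axis) and with both mutants against SETBP1 (vertical axis); each point is 1 of 10993 genes, the dashed line marks equal change and large points the 5 genes whose changes differ at an adjusted p under 0.05. Slc7a11, Tmem176b, Camp and Apobec3 lie below the line and Oaf above it.

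The difference between the NRAS changes was tested for every gene as an interaction, and 5 of 10993 genes (0.0455%) passed, 1 with a more positive change in the SETBP1 background and 4 with a more negative one. At an unadjusted p under 0.05 there were 1420. The number that passed was 1 without empty replicate 1 or 3, 2 without empty replicate 2 or without replicate 1 or 2 of the group with both mutants, and 3 without its replicate 3 or NRAS replicate 2. It was 10 without SETBP1 replicate 2, 76 without replicate 1 and 110 without replicate 3. Slc7a11 (chr3:49892526-50443614, minus strand) read 11.2, 10.7 and 10.9 normalised CPM with empty vectors and 131, 121 and 152 with NRAS alone, against 23.1, 24.8 and 22.2 and 103, 109.7 and 106 in the SETBP1 background. NRAS thus raised it in both settings, by 3.62 and 2.18, and the difference was -1.44 (SE 0.15, adjusted p = 0.00169). It passed in all 12 fits that left out a library. Tmem176b, a membrane protein of myeloid cells, read 59.8, 65.4 and 61.3 and 23.3, 27.9 and 22.3 without SETBP1 and 103, 92.9 and 106 and 11.3, 16.6 and 14.7 with it. It fell in both, by -1.34 and -2.82, and the difference was -1.48 (SE 0.19, adjusted p = 0.0114). Tmem176b was lost without empty replicate 1 or 3, where the adjusted p reached 0.0731.

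The other 3 genes held in fewer of those fits. Apobec3, a cytidine deaminase that restricts retroviruses, overlapped between the groups without SETBP1, at 169, 159 and 168 and 172, 167 and 189 normalised CPM. In the SETBP1 background it went from 225, 221 and 239 to 143, 141 and 153. The changes were 0.09 and -0.65, and their difference was -0.74 (SE 0.10, adjusted p = 0.0178), past the threshold in 7 of 12 fits. Camp, the cathelicidin of neutrophil granules, fell in both settings, from 294, 291 and 297 to 79.3, 54 and 49.9 normalised CPM and from 242, 178 and 172 to 14.7, 15.1 and 12.1. The difference of -1.55 (SE 0.24, adjusted p = 0.0424) passed in 5 of 12. Oaf (chr9:43221235-43239911, minus strand) rose in both, from 16.5, 14.1 and 13.1 to 47.3, 46.9 and 52.4 and from 11.8, 10.6 and 11.1 to 81.7, 76.4 and 76.7, and its difference of 1.06 (SE 0.16, adjusted p = 0.0374) passed in 2 of 12. Across those fits the differences ran from -0.78 to -0.69 for Apobec3, from -1.68 to -1.32 for Camp and from 0.95 to 1.13 for Oaf, with adjusted p up to 0.129, 0.194 and 0.184. Apobec3 was lost without any 1 of the empty replicates or without replicate 1 or 2 of the group with both mutants. Camp was lost in the same fits and also without NRAS replicate 2 and replicate 3 of the group with both mutants, and Oaf was kept without SETBP1 replicate 1 or 3.

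**Figure D5:**
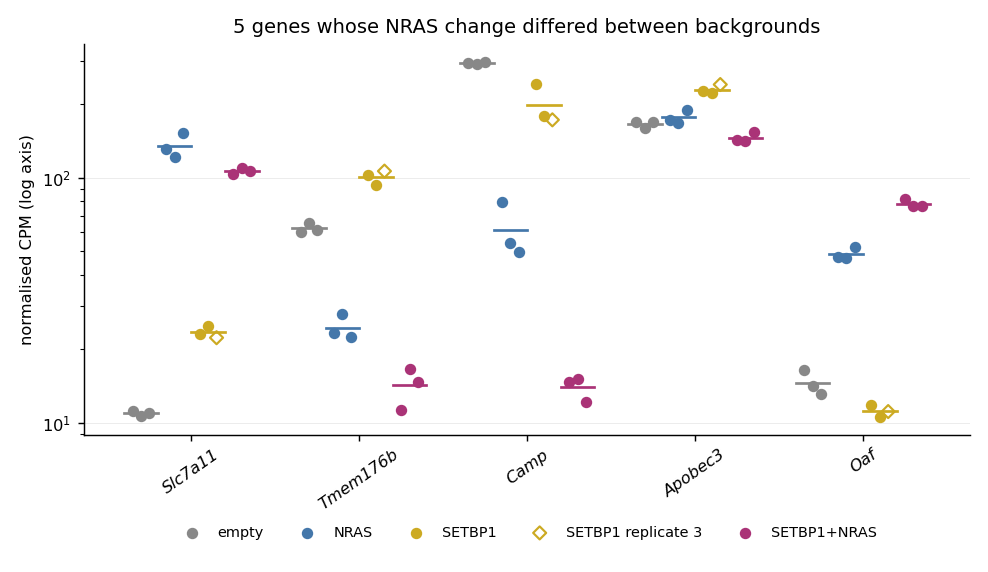
Normalised CPM on a log scale (vertical axis) of Slc7a11, Tmem176b, Camp, Apobec3 and Oaf in the 3 libraries of each of the 4 groups; points are libraries, the open diamond is SETBP1 replicate 3 and bars are group means. Apobec3 overlaps between empty and NRAS and is lower with both mutants than with SETBP1, while the other 4 genes move the same way in both settings by different amounts.

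Without SETBP1 replicate 3 the difference passed for 110 of 11112 genes (0.990%), 52 more positive and 58 more negative, and all 5 genes above were among them. Egr1 was 1 of the added genes: NRAS raised it by 3.94 without SETBP1, and the difference was -1.83 (adjusted p = 0.00519) without replicate 3 and -1.76 (adjusted p = 0.132) with it. Il1b, interleukin-1 beta, rose by 1.71 with NRAS alone and was not called in the SETBP1 background, at 15.2, 14.1 and 34.4 and 14, 9.60 and 14.9 normalised CPM. Its difference was -1.90 (adjusted p = 0.00256) without replicate 3 and -2.44 (adjusted p = 0.119) with it. Mmp14 fell in the SETBP1 background as given above and was not called with NRAS alone (-0.45, adjusted p = 0.21), with a difference of -1.40 (adjusted p = 0.00519) and -1.77 (adjusted p = 0.143). The decoy receptor Il1r2 was a gene with a more positive change, at 1.25 (adjusted p = 0.00519) and 0.95 (adjusted p = 0.259). Il1b, Egr1, Mmp14 and Il1r2 were picked from the 110 after their values were seen.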

How the data were processed

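The authors deposited whole-number counts per gene symbol, not normalised, for 19910 symbols in 12 libraries with 7085894 to 8864919 counts each, and 5080 symbols had no count in any library. Per the labels, RNA came from an RNeasy micro kit and was turned into libraries with SMART-Seq chemistry for ultra low input. Build mm10, STAR and DESeq2 are named in the submitters' processing notes. The counting tool, annotation, strand setting and the filter in the table's name are not given in the sources used here, so overlapping genes and close copies may share or lose reads.

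Genes were kept by filterByExpr (minimum count 10, minimum total 15), which left 10993 genes with 99.9% of the counts. TMM-scaled counts of all 12 libraries were fitted as 4 group means with edgeR 4.0.16 in R 4.3.3, so that the groups share 1 estimate of spread. Quasi-likelihood F tests were two-sided, with Benjamini-Hochberg adjustment over all genes tested and a threshold of 0.05. SE is the standard error of a log2 change and is left out for genes with a group at 0, for which the fold is a lower bound from 3 counts in a library. Count ratios have exact 95% intervals that cover counting error only. The interaction is the NRAS change with SETBP1 minus that without it. Steps were tested on simulated counts.

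The comparison, 45 gene lists and naming rule were chosen with earlier results of these data known. The rule names Nras, Setbp1, the 10 largest changes in each direction (groups without overlap, mean count of at least 50 in the higher group), the 3 largest called members of each list in each direction, preset members of the lists and every gene past the threshold in the interaction. Alternatives were DESeq2 1.42.0, limma-voom (limma 3.58.1), other scalings and filters, a replicate block, robust fitting, only the groups compared, stricter thresholds and each library left out.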

Additional observations from a re-analysis of the deposited data

Results flagged for a closer look

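The difference between the NRAS change with SETBP1 and the NRAS change without it was tested for every gene, and 5 genes passed. It was -1.44 for Slc7a11, -1.48 for Tmem176b, -1.55 for Camp, -0.74 for Apobec3 and 1.06 for Oaf on the log2 scale. Slc7a11 passed in all 12 fits that left out a library, Tmem176b in 10, Apobec3 in 7, Camp in 5 and Oaf in 2. Camp also missed the threshold with limma-voom (adjusted p = 0.164), library size scaling (0.0673) and upper-quartile scaling (0.0631), and Oaf with limma-voom (0.107) and a replicate block (0.0629). Without SETBP1 replicate 3 all 5 passed, with values of -1.47 for Slc7a11, -1.43 for Tmem176b, -1.64 for Camp, -0.71 for Apobec3 and 1.06 for Oaf. The part of that library in the smaller number of calls with all libraries was not tested beyond leaving it out.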

How the results depend on the processing

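The count of 4661 genes past the threshold with both mutants against SETBP1 stayed within 1.5 times under DESeq2, limma-voom, the scalings, the count filters, the robust fit and each library left out. With a library left out it ran from 3681 to 5166, of which 1831 to 2626 were higher and 1850 to 2622 lower. It was split into 1720 higher and 2888 lower with library size scaling and 1938 and 2699 with upper-quartile scaling. It was 3083 (1453 higher, 1630 lower) when only those groups were fitted, 3043 (1520 and 1523) at an adjusted p under 0.01 and 1421 (598 and 823) with at least a 2-fold change. NRAS against empty vectors gave 3576 calls, 2289 at an adjusted p under 0.01 and 1088 with at least a 2-fold change. It gave 5261 when only its own groups were fitted and 2681 to 5224 with a library left out. The interaction count of 5 (1 higher, 4 lower) was 84 with DESeq2 (33 and 51), 3 with limma-voom (0 and 3), 14 without a count filter (3 and 11) and 1 at an adjusted p under 0.01 (0 and 1). It held 3 increases with library size scaling. With a library left out it ran from 1 to 110, increases from 0 to 52 and decreases from 1 to 58, with the high values without SETBP1 replicate 3 (110) and without SETBP1 replicate 1 (76). Where a value moved, the cause was not tested. No named gene reversed in a called direction, and of 242 named genes 196 (with a mean count of at least 50, where others were not tested) to 242 kept their side of the threshold in any setting. Deviations of same-numbered libraries correlated at -0.007, 0.039 and 0.124, so the numbers were not taken to pair the libraries. With a replicate block the calls were 4404 (2193 and 2211) and 6 for the interaction. Genes with a few counts in a library were limited by depth: at these totals 3 counts are 0.332 to 0.420 normalised CPM.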
